A study of Mus musculus with 12 samples.

Results

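Mtfp1 and 8 genes of the machinery that divides and fuses mitochondria were followed across 12 libraries of mouse hippocampus with and without a conditional deletion of Atrx. Mtfp1 was selected on its measured FPKM, which was lower in Atrx conditional knockout (cKO) libraries of both sexes, and its values in cKO against control, its transcripts included, are therefore a description without a test. The other 8 genes were chosen as known components of the machinery. Dnm1l, Fis1, Mff, Mief1 and Mief2 act in fission, and Mfn1, Mfn2 and Opa1 act in fusion. These are 9 of the 54532 genes in the deposited tables, and all 9 were among the 15087 genes that passed a filter on low values.

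The study compared hippocampal total RNA of 3-month-old mice in 4 groups of 3 libraries: Atrx-cKO females, control females, Atrx-cKO males and control males. According to the series title, the deleted cells are neurons. The labels name no treatment; they also leave out the Cre driver, the deleted exons, the strain and the alleles of the controls. The design text counts pairs of control and cKO mice but ties no library to an animal, so all p-values measure the spread between these libraries.

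Mitochondria are reshaped by opposed membrane reactions. In fission, the GTPase DRP1 (gene Dnm1l) is drawn from the cytosol to receptors on the outer membrane, forms rings and constricts the organelle; in fusion, mitofusins join outer membranes and OPA1 joins inner membranes. MTFP1 is a protein of the inner membrane: in cultured cells its excess fragments mitochondria and its loss leaves them elongated. Neurons depend on this balance because mitochondria must be small enough to travel along axons and dendrites to synapses.

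The levels below are FPKM, fragments per kilobase of transcript scaled to the mapped total, as the authors deposited them and summed over the transcripts of a gene. Depth was 1.16 to 4.26 Gb of mapped sequence in cKO females, 3.60 to 7.90 Gb in control females, 3.66 to 8.64 Gb in cKO males and 7.12 to 8.19 Gb in control males. A background level, the median of 1459 olfactory and vomeronasal receptor genes that hippocampus does not use, was 1.97 and 2.25 FPKM in cKO females 2 and 3 and 0.00664 to 0.602 FPKM in the other 10 libraries. Tests of genes therefore used processed values, in which this background was subtracted and libraries were scaled. Tests of transcripts used deposited FPKM with the same scaling and no subtraction. Atrx itself had 31.0 to 38.2 FPKM in cKO females against 55.6 to 63.6 FPKM in control females, and 32.3 to 36.5 FPKM in cKO males against 40.2 to 46.9 FPKM in control males, with no overlap in either sex. The log2 change of Atrx was -0.87 in females (limma, Benjamini-Hochberg adjusted p = 0.0200) and -0.47 in males (adjusted p = 1). It was negative under all 25 alternatives in both sexes, but in females it passed in 12 of them, with adjusted p-values of 0.000828 to 0.142, and it was lost in 8 of the 12 fits without 1 library: cKO female 2 (0.0827), control females 1 (0.0782), 2 (0.142) or 3 (0.0770), cKO male 1 (0.0651), or control males 1 (0.0565), 2 (0.0617) or 3 (0.0513). In males it passed with library weights alone (adjusted p = 0.0318). All 7 neuron markers and 8 of 8 hippocampal field markers were measured above the filter, and 0 of the 47 markers tested in 8 cell type lists passed in cKO against control of either sex by limma (5 had an unadjusted p under 0.05 in females and 2 in males, where 29.4% and 2.33% of all genes did). In RNA from whole tissue, fewer cells of a type and less RNA per cell cannot be told apart.

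The promoter windows of 3 of the genes are shown for a reader who wants the sequence at the starts compared here: Mtfp1 because its level was lower in cKO, Fis1 because it differed between control males and control females, and Opa1 because its window alone held an NRF1 match. All 9 genes matched entries of the RefSeq promoter table (GRCm38.p6), with 14 windows of 300 bases, each from 250 bases before to 50 bases after an annotated start. Capitals mark matches on either strand to the NRF1 and CRE motifs, the ETS motif CCGGAAG, the GC box GGGCGG, the E-box CACGTG or the TATA box TATAAA, and no matches overlapped each other in the windows shown. The Mtfp1 window is chr11:4095382-4095681 on the minus strand, the Fis1 window chr5:136953025-136953324 on the plus strand and the Opa1 window chr16:29579084-29579383 on the plus strand.
Mtfp1: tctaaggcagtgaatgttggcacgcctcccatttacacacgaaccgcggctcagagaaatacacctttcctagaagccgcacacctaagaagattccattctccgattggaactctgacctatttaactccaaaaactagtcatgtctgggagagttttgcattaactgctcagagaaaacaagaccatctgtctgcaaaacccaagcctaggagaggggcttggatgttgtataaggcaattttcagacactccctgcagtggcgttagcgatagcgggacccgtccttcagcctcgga
Fis1: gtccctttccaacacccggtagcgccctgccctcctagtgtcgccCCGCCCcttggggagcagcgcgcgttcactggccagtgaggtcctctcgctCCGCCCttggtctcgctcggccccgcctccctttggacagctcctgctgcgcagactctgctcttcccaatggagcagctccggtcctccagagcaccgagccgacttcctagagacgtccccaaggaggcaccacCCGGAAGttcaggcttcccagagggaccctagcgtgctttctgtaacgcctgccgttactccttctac
Opa1: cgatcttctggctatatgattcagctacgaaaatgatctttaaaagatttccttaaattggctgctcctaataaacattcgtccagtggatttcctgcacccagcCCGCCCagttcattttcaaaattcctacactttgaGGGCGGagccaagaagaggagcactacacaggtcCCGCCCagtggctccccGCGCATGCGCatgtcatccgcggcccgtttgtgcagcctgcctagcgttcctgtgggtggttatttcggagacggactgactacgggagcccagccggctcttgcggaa

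The Mtfp1 window held none of the 6 motifs and is in lower case throughout. It was 48.67% G and C, against a median of 52.67% over 32851 mouse promoter windows, and held 11 CpG dinucleotides, against a median of 7. The Fis1 window shown held 1 ETS match starting at base -18 and 2 GC boxes. A second Fis1 window, at chr5:136961827-136962126, spans the start of transcript ENSMUST00000019198 and held 1 ETS match and 4 GC boxes. The Opa1 window held 1 NRF1 match starting at base -59 and 3 GC boxes. Among all 32851 windows, 4.6% held the NRF1 motif, 8.86% the ETS motif, 35.7% a GC box, 1.79% a CRE, 7.15% an E-box and 13.6% a TATA box. A match is a string of letters and not a measured binding site.

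In both sexes the Mtfp1 levels of the cKO libraries all lay below those of the controls. The gene (ENSMUSG00000004748) lies on chromosome 11 at 4091480 to 4095445 on the minus strand, in the coordinates of the deposited tables, and its exons overlap those of no other annotated gene. Mtfp1 had 15.3, 14.0 and 13.2 FPKM in cKO females 1 to 3, against 24.4, 24.6 and 24.0 FPKM in control females 1 to 3. In males it had 16.4, 15.3 and 14.7 FPKM in cKO 1 to 3, against 25.0, 23.2 and 24.0 FPKM in control 1 to 3. The highest cKO library of either sex lay well under the lowest control library, and the 6 cKO libraries spanned 13.2 to 16.4 FPKM.

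**Figure D1:**
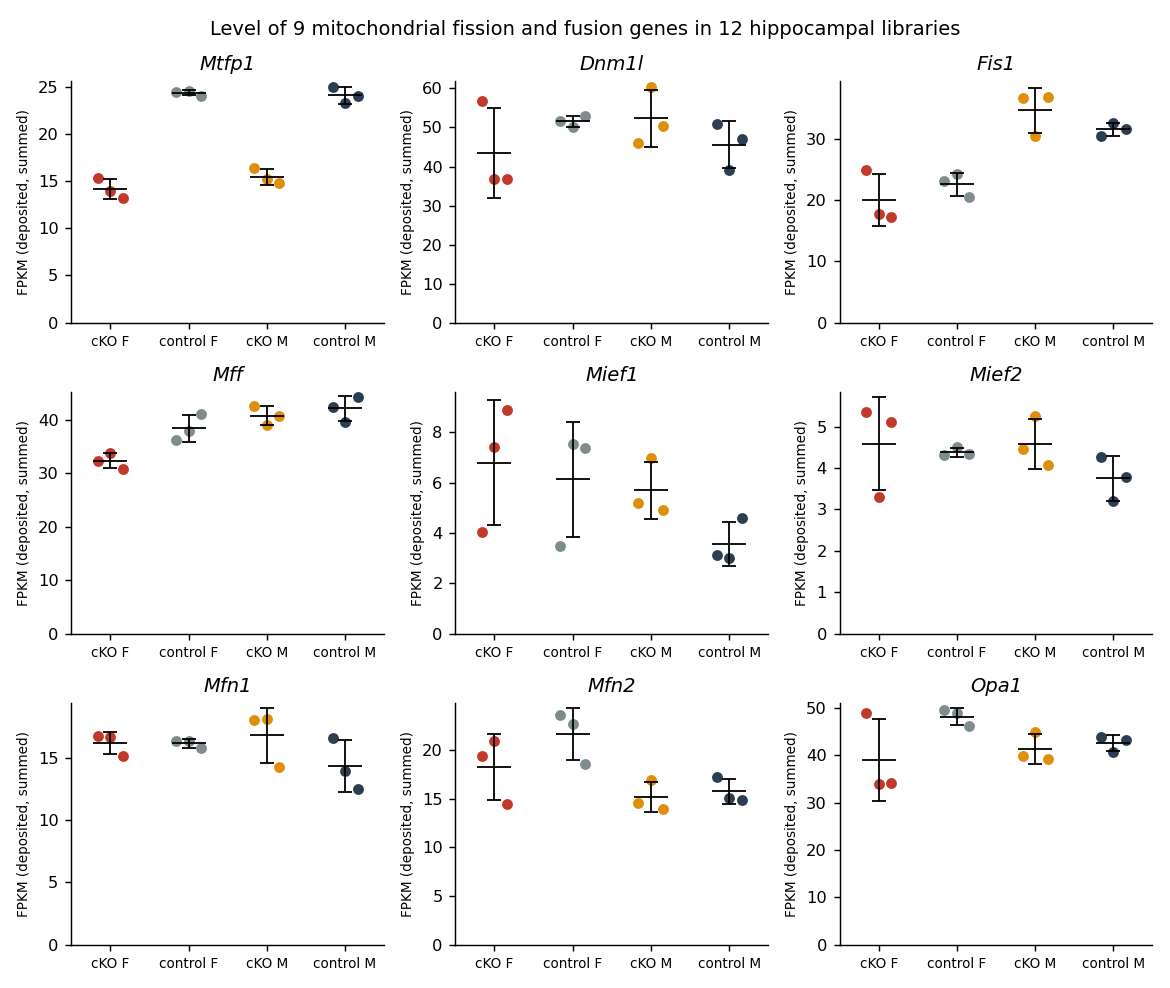
Deposited FPKM, summed over transcripts, of the 9 genes in cKO females, control females, cKO males and control males; points are libraries, bars the mean and SD of 3. Mtfp1 sits at 13.2 to 16.4 FPKM in the cKO libraries and at 23.2 to 25.0 FPKM in the control libraries, while the points of the other genes overlap between cKO and control in at least 1 sex.

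On the deposited scale Mtfp1 averaged 14.2 ± 1.09 FPKM in cKO females and 24.3 ± 0.27 FPKM in control females, a ratio of 0.582 (SD, n = 3 each). In males it averaged 15.5 ± 0.843 FPKM in cKO and 24.1 ± 0.891 FPKM in control, a ratio of 0.642. After background subtraction and scaling, cKO and control were again apart in both sexes. The processed values were 10.7, 10.4 and 10.6 in cKO females, against 17.2, 16.9 and 17.9 in control females. In males they were 11.4, 10.9 and 11.2 in cKO, against 17.6, 17.6 and 17.6 in control. The log2 change on the log2(processed value + 0.5) scale was -0.69 (SE 0.0554) in females and -0.64 (SE 0.0554) in males. A lower log2 change than that of Mtfp1 was found for 10.25% of all genes tested in females and 0.988% in males. The male change minus the female change was 0.05 (SE 0.0783), given without a test since the rule used both.

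By the median over groups, Mtfp1 varied least of the 9 genes within a group, although in control females Opa1 (1.21%) varied less than Mtfp1 (2.95%). The coefficient of variation of the processed values, as the median over the 4 groups, was 1.84% for Mtfp1, 3.3% for Opa1 and 6.36% for Mfn2. For the other 6 genes it ran from 8.01% for Mfn1 to 34.4% for Mief1. Mtfp1 was selected on these same libraries, and the part of that selection in its small spread was not tested. Without cKO females 2 and 3, the libraries of high background, the log2 change in females was -0.67, with 1 cKO female library remaining.

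The markers of choroid plexus, an epithelium next to the hippocampus, differed by far more between libraries than Mtfp1 did. Their summed processed level over 6 genes was 26.8 to 41.6 in cKO females, against 16.8, 5134 and 11.5 in control females 1 to 3. Those 3 control libraries had 24.4, 24.6 and 24.0 FPKM of Mtfp1. In males the sum was 2310, 43.1 and 44.9 in cKO 1 to 3, against 1241 to 3632 in control, while cKO male 1 had 16.4 FPKM of Mtfp1 and cKO males 2 and 3 had 15.3 and 14.7 FPKM. The summed level of the 7 neuron markers was 683 to 754 in cKO females against 653 to 701 in control females, and 574 to 628 in cKO males against 583 to 628 in control males. That of the 8 hippocampal field markers was 80.5 to 95.1 in cKO females against 94.9 to 112 in control females, with 8 of 8 estimates negative, and 77.3 to 84.9 in cKO males against 79.9 to 92.2 in control males. Microglia markers summed to 23.7 to 29.0 in cKO females against 29.0 to 34.1 in control females, and to 39.4 to 45.6 in cKO males against 40.9 to 47.2 in control males. Astrocyte markers summed to 214 to 238 in cKO females against 210 to 219 in control females, and to 274 to 319 in cKO males against 316 to 374 in control males, with 6 of 6 estimates in males negative. For oligodendrocyte markers the sums were 236 to 315 in cKO females against 258 to 357 in control females, and 375 to 728 in cKO males against 508 to 645 in control males. In each of these pairs the ranges met or overlapped, and their part in the Mtfp1 difference was not tested.

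Both annotated transcripts of Mtfp1 were present, and the full-length one carried the lower level in cKO. The transcript of 4 exons and 1411 bases (ENSMUST00000004868), which encodes the protein, held 94.0% of the gene's FPKM over all libraries. It had 14.5, 9.66 and 10.3 FPKM in cKO females, against 24.1, 23.9 and 23.0 FPKM in control females. In males it had 15.4, 14.3 and 14.4 FPKM in cKO, against 24.6, 22.3 and 23.6 FPKM in control. Each library's coverage of it, as the authors deposited it, was 11.2 to 61.9 reads per base in cKO females, 83.0 to 189 in control females, 52.5 to 130 in cKO males and 175 to 189 in control males. The other transcript (ENSMUST00000123607) has 2 exons and 410 bases and is annotated as a processed transcript without a protein. Its share of the gene was 5.28%, 30.9% and 21.8% in cKO females 1 to 3, against 1.31% to 4.16% in control females. In males its share was 2.43% to 6.32% in cKO, against 1.7% to 4.19% in control. The large shares are in cKO females 2 and 3, the libraries of high background, whose part in them was not tested.

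**Figure D2:**
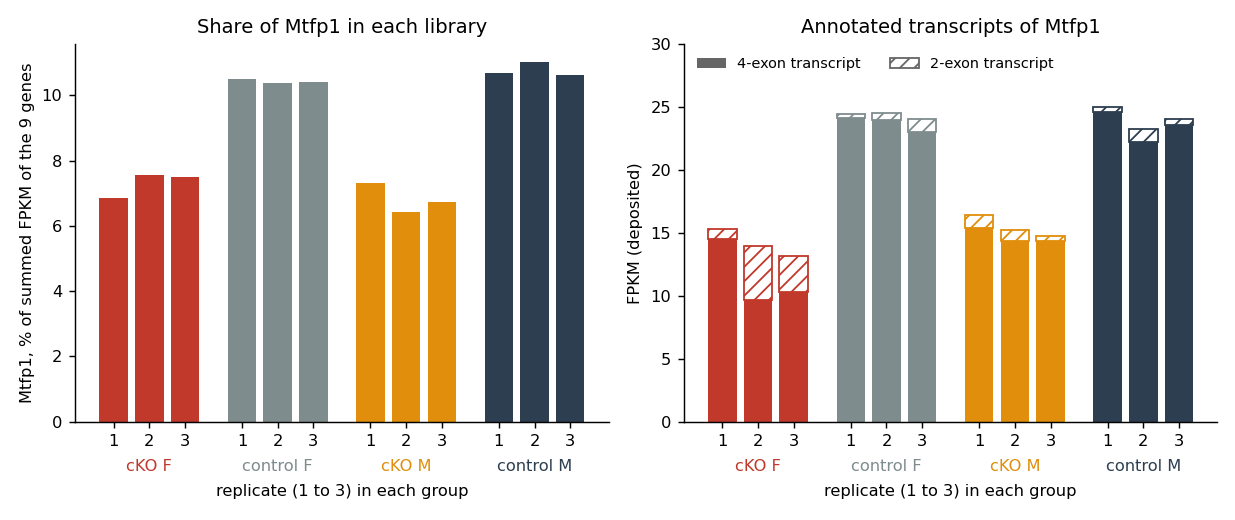
Left, Mtfp1 as a percent of the summed deposited FPKM of the 9 genes in each library; right, deposited FPKM of its 4-exon transcript (solid) and 2-exon transcript (hatched), stacked. The share is 6.42% to 7.57% in the 6 cKO libraries and 10.4% to 11.0% in the 6 control libraries, and the 2-exon part is tall in cKO females 2 and 3.

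Set against the machinery around it in the same library, Mtfp1 was lower in cKO, which describes the same chosen difference on another scale. It made up 6.85%, 7.57% and 7.5% of the summed FPKM of the 9 genes in cKO females, against 10.5%, 10.4% and 10.4% in control females. In males it made up 7.33%, 6.42% and 6.73% in cKO, against 10.7%, 11.0% and 10.6% in control. Divided by each of the other 8 genes in turn, Mtfp1 was lower in all cKO than in all control libraries for 8 of 8 in males and 7 of 8 in females; the exception was Mtfp1 over Mief1 in females. Such a ratio needs no scaling between libraries.

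The place of Mtfp1 in the order of deposited FPKM levels differed between the genotypes, and these places depend on the scale. Among the 9 genes it was in place 7 in cKO females and place 4 in control females, and in place 6 in cKO males and place 5 in control males. In control females the order was Dnm1l (51.6 FPKM), Opa1 (48.2), Mff (38.4), Mtfp1 (24.3), Fis1 (22.6), Mfn2 (21.6), Mfn1 (16.1), Mief1 (6.13) and Mief2 (4.39), where Mtfp1, Fis1 and Mfn2 had overlapping ranges with their neighbours and so did Mief1 and Mief2. In cKO females Mtfp1 (14.2 FPKM) stood after Mfn1 (16.2 FPKM), with overlapping ranges, and above Mief1 (6.78 FPKM), without overlap. In cKO males Mtfp1 (15.5 FPKM) overlapped both Mfn1 (16.8 FPKM) and Mfn2 (15.1 FPKM). In control males Mtfp1 (24.1 FPKM) stood clear of Fis1 (31.6 FPKM) and of Mfn2 (15.7 FPKM). By processed means the order was another. Mtfp1 (17.3) then came between Opa1 (29.3) and Mfn2 (14.2) in control females, and (10.6) between Mfn2 (12.8) and Fis1 (9.85) in cKO females. For males it came (17.6) between Opa1 (25.8) and Fis1 (14.4) in control, and (11.1) between Fis1 (15.8) and Mfn2 (10.2) in cKO.

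None of the 8 other genes changed by the test in cKO against control. By limma over all 15087 genes with Benjamini-Hochberg adjustment, 0 of 8 passed in females, in males, in the mean of both sexes and in the difference between the sexes, and 0 of 8 had an unadjusted p under 0.05 in any of them. Over all genes 29.4% had one in females, 2.33% in males, 20.4% in the mean and 6.24% in the difference. Of all genes tested, 0.0729% passed in females (11 genes), 0.00663% in males (1 gene), 0.0331% in the mean (5 genes) and 0% in the difference (0 genes, with 941 at an unadjusted p under 0.05). The counts in females, in males and in the mean include Mtfp1. Since it was chosen for this difference, they serve only as the share beside the 8 genes and are no test of Mtfp1. Leaving out 1 library at a time moved the count over all genes in females between 1 (without cKO female 2) and 5768 (without cKO female 1); without cKO female 1 it was 4430 in the mean and 2907 in the difference. For the 8 genes it was 0 in each of these 12 fits and with library weights.

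**Figure D3:**
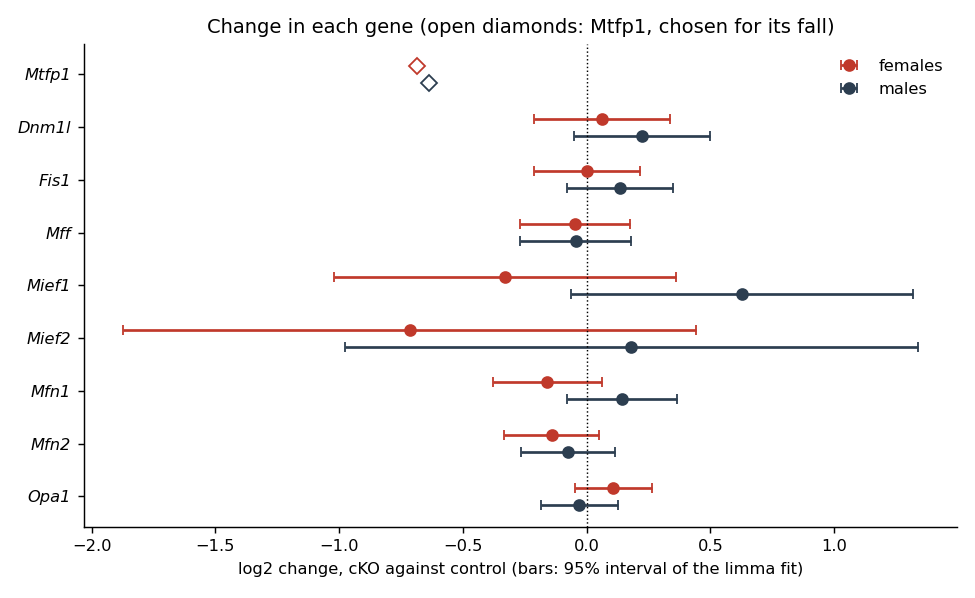
Log2 change of processed values in cKO against control for each gene, in females (red) and males (dark blue); points are estimates of the limma fit and bars their 95% intervals, drawn for the 8 tested genes. The 8 tested genes have intervals that reach 0, wide for Mief1 and Mief2, and the open diamonds of Mtfp1 lie at -0.69 and -0.64.

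Among fission genes, Dnm1l encodes DRP1, the GTPase that cuts the organelle. It had 56.9, 36.8 and 36.8 FPKM in cKO females, against 51.6, 50.2 and 53.0 FPKM in control females. In males it had 46.1, 60.5 and 50.4 FPKM in cKO, against 50.8, 39.1 and 46.9 FPKM in control. Both pairs of groups overlapped. The log2 change was 0.06 in females (95% interval -0.21 to 0.34, limma adjusted p = 0.768) and 0.22 in males (-0.05 to 0.50, adjusted p = 1). An antisense gene, Gm49521, shares 243 exonic bases with Dnm1l on the other strand, and the sources used here do not say whether counting used strand.

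Fis1 is an outer membrane protein that can bind DRP1. It had 24.9, 17.8 and 17.3 FPKM in cKO females, against 23.1, 24.3 and 20.5 FPKM in control females, and 36.7, 30.5 and 37.0 FPKM in cKO males, against 30.5, 32.7 and 31.6 FPKM in control males. The groups overlapped in either sex, while male libraries of both genotypes lay above all female libraries. The log2 change was 0.00 in females (-0.21 to 0.22, adjusted p = 0.990) and 0.14 in males (-0.08 to 0.35, adjusted p = 1).

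Mff is the outer membrane receptor through which much DRP1 is recruited in mammalian cells. It had 32.3, 33.7 and 30.9 FPKM in cKO females, against 36.2, 37.8 and 41.1 FPKM in control females, with no overlap on this scale. After background subtraction and scaling the female groups overlapped, at 4.15, 4.97 and 4.56 in cKO against 4.48, 4.50 and 5.20 in control; these values are lower because they divide by all exonic bases of the gene. In males it had 42.5, 39.1 and 40.7 FPKM in cKO, against 42.4, 39.6 and 44.3 FPKM in control. The log2 change was -0.05 in females (-0.27 to 0.18, adjusted p = 0.787) and -0.04 in males (-0.27 to 0.18, adjusted p = 1). A processed transcript on the opposite strand, C430014B12Rik, shares 195 exonic bases with Mff.

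Mief1 encodes MiD51, an outer membrane protein that gathers DRP1. It had 4.05, 7.40 and 8.89 FPKM in cKO females, against 3.49, 7.52 and 7.37 FPKM in control females. The male libraries had 5.18, 6.99 and 4.91 FPKM in cKO, against 3.12, 3.01 and 4.58 FPKM in control, so that all cKO males lay above all control males. The processed values kept that order in males, at 2.51, 3.11 and 2.65 in cKO against 1.14, 1.40 and 2.47 in control. The log2 change was 0.63 in males (-0.06 to 1.32, unadjusted p = 0.0713, adjusted p = 1) and -0.33 in females (-1.02 to 0.36, adjusted p = 0.499). The male change minus the female change was 0.96 (SE 0.442) and did not pass (adjusted p = 0.584). A protein-coding gene on the same strand, AC140267.1, shares 213 exonic bases with Mief1, and reads there cannot be told apart.

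Mief2 encodes MiD49, the close relative of MiD51. It had 5.35, 3.30 and 5.11 FPKM in cKO females, against 4.31, 4.51 and 4.33 FPKM in control females. The male libraries had 4.45, 5.25 and 4.07 FPKM in cKO, against 4.27, 3.20 and 3.78 FPKM in control. Both pairs overlapped, and after background subtraction cKO female 2 was left with 0.188, against 2.63 to 3.85 in the other 11 libraries. Its fitted log2 change was -0.71 in females (-1.87 to 0.44, limma adjusted p = 0.374) and 0.18 in males (-0.98 to 1.34, adjusted p = 1). Both intervals are wide because the fit uses 1 SE (0.523) for both sexes, which takes in cKO female 2. The SD of the log2 values was 1.43 in cKO females and 0.0944 in control females. In males that SD was 0.136 in cKO and 0.123 in control. Without cKO females 2 and 3 the female estimate was 0.21.

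Among fusion genes, Mfn1 encodes a mitofusin, a GTPase that tethers outer membranes. It had 16.7, 16.7 and 15.1 FPKM in cKO females, against 16.3, 16.4 and 15.8 FPKM in control females, and 18.0, 18.1 and 14.2 FPKM in cKO males, against 16.6, 14.0 and 12.5 FPKM in control males. The groups overlapped in both sexes. Its fitted log2 change was -0.16 in females (-0.38 to 0.06, adjusted p = 0.304) and 0.14 in males (-0.08 to 0.37, adjusted p = 1).

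Mfn2 encodes the second mitofusin, which also sits at contacts with the endoplasmic reticulum and is mutated in a human inherited neuropathy. It had 19.4, 21.0 and 14.5 FPKM in cKO females, against 23.6, 22.6 and 18.6 FPKM in control females. The male libraries had 14.6, 16.9 and 13.9 FPKM in cKO, against 17.3, 15.1 and 14.9 FPKM in control. Groups overlapped in both sexes. Its fitted log2 change was -0.14 in females (-0.33 to 0.05, adjusted p = 0.287) and -0.07 in males (-0.27 to 0.12, adjusted p = 1).

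Opa1 encodes the GTPase that fuses inner membranes and holds cristae closed. It had 49.1, 34.0 and 34.2 FPKM in cKO females, against 49.6, 48.9 and 46.1 FPKM in control females. The male libraries had 39.8, 45.0 and 39.3 FPKM in cKO, against 43.9, 40.8 and 43.3 FPKM in control. The 2 low deposited values are those of cKO females 2 and 3; after background subtraction and scaling all cKO females lay above all control females, at 30.5, 33.4 and 31.2 against 29.6, 28.9 and 29.4. Its fitted log2 change was 0.11 in females (-0.05 to 0.26, adjusted p = 0.317) and -0.03 in males (-0.19 to 0.13, adjusted p = 1).

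The balance of the machinery without Mtfp1 overlapped between the genotypes. The summed FPKM of the 5 fission genes over that of the 3 fusion genes was 1.38 to 1.55 in cKO females against 1.33 to 1.57 in control females, and 1.78 to 2.03 in cKO males against 1.69 to 1.86 in control males. Mfn2 over Mfn1 was 0.956 to 1.26 in cKO females against 1.18 to 1.45 in control females, with overlap. In males it was 0.809 to 0.981 in cKO against 1.04 to 1.19 in control, without overlap on the deposited scale. By processed values the male groups overlapped. There cKO male 2 had 11.3 for Mfn2 and 7.03 for Mfn1, a higher ratio than in control male 1, with 11.2 and 7.54. This ratio was not tested.

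The transcripts of the 8 other genes gave no call either. Of their 65 annotated transcripts, 48 passed the filter on low values among 79484 transcripts tested, and 0 of 48 passed by limma in females, males or their mean, where 0.0679%, 0.0101% and 0.0365% of all transcripts passed. In females 10 of the 48 had an unadjusted p under 0.05 and in males 0 did, beside 47.0% and 1.3% of all transcripts, and the median log2 change of all transcripts was 0.92 in females and 0.17 in males. Without cKO female 1, 15 of the 48 passed in females and 12 in the mean, beside 49915 and 45277 transcripts in all.

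Of the 65 transcripts, 21 held at least 10% of their gene. Opa1 was carried mainly by 1 transcript of 29 exons (ENSMUST00000160597), with 66.1% to 82.8% of the gene in cKO females against 69.2% to 74.0% in control females, and 66.8% to 72.7% in cKO males against 66.5% to 68.0% in control males. Mief2 was likewise carried by 1 coding transcript (ENSMUST00000018743), at 55.7% to 84.0% in cKO females against 80.0% to 93.0% in control females, and 83.5% to 86.2% in cKO males against 88.0% to 94.3% in control males. Its retained-intron transcript (ENSMUST00000154890) held 15.3% to 44.3% in cKO females against 7.01% to 19.98% in control females, and 9.79% to 13.9% in cKO males against 5.52% to 12.0% in control males. For Fis1 a pair of 5-exon coding transcripts (ENSMUST00000111094 and ENSMUST00000019198) held 44.9% and 43.2% over all libraries. Dnm1l had 3 such transcripts: coding ENSMUST00000115749 with 43.5% and ENSMUST00000096229 with 24.0%, and ENSMUST00000230958, annotated with a retained intron, with 20.1%. Mff was spread over 16 transcripts, of which coding ENSMUST00000160744 held 26.7% and retained-intron ENSMUST00000162056 held 10.2%. Of Mfn1, coding ENSMUST00000091257 held 53.7%, and retained-intron ENSMUST00000191661 and ENSMUST00000140328 held 14.4% and 10.9%. Of Mief1, coding ENSMUST00000023048 held 41.8% and ENSMUST00000228788, annotated for nonsense-mediated decay, held 17.4%. Further coding transcripts past 10% were ENSMUST00000161186 of Opa1 (11.3%) and ENSMUST00000030884 (20.2%), ENSMUST00000105716 (17.8%) and ENSMUST00000105714 (14.9%) of Mfn2. The 2-exon retained-intron transcript of Mief1 (ENSMUST00000231110) held 36.0% to 45.5% in cKO females against 13.7% to 33.5% in control females, without overlap; in males it held 16.9% to 24.0% in cKO against 14.5% to 28.6% in control. Its log2 change in females was 1.26 and did not pass (limma adjusted p = 0.0615), where the median of all transcripts was 0.92. Background was not subtracted from these shares or from the transcript values tested. The shares of the coding transcripts of Mfn2 swung widely inside a group: ENSMUST00000105715 held 10.9% to 46.0% in cKO females against 13.1% to 61.4% in control females, and 14.0% to 62.7% in cKO males against 61.3% to 62.0% in control males.

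Between the sexes, control males against control females, all 9 genes could be tested, Mtfp1 included, since its choice did not use that comparison. The choice did use the levels of these control libraries against cKO, and its part in the spread of Mtfp1 was not tested. Mtfp1 did not pass: it had 24.1 ± 0.891 FPKM in control males and 24.3 ± 0.27 FPKM in control females (SD, n = 3 each), a log2 change of 0.02 (95% interval -0.10 to 0.14, limma adjusted p = 0.834). Fis1 was higher in control males, with all 3 above all control females and a log2 change of 0.52 (0.31 to 0.74, adjusted p = 0.00872). Mfn2 was lower in control males, at 17.3, 15.1 and 14.9 FPKM against 23.6, 22.6 and 18.6 FPKM in control females, with a log2 change of -0.38 (-0.57 to -0.19, adjusted p = 0.0190). These are 2 of 9 genes, where 11.7% of all genes tested passed in this comparison. Opa1 had all control males below all control females and did not pass (-0.18, -0.34 to -0.03, adjusted p = 0.127).

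The call for Fis1 held without any 1 library, with adjusted p-values that missed the threshold without scaling (0.294) and with summed FPKM scaled over all genes (0.110). The call for Mfn2 was lost without control female 1 (adjusted p = 0.0733) or 2 (0.0603) and without control male 2 (0.0664) or 3 (0.0835). Scaled over all genes without background subtraction, Mfn2 had a log2 change of 0.20 (adjusted p = 0.633) while the median of all genes was 0.41. Cell type markers also differed between control males and control females: the summed processed level of 6 oligodendrocyte markers was 508 to 645 in control males against 258 to 357 in control females, and that of 6 astrocyte markers was 316 to 374 in control males against 210 to 219 in control females. Sums were lower without overlap in control males for the 8 hippocampal field markers (79.9 to 92.2 in control males against 94.9 to 112 in control females, with 3 passing the test) and for the 7 neuron markers (583 to 628 in control males against 653 to 701 in control females, with 1 passing). Their part in the Fis1 and Mfn2 differences was not tested.

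Atrx had the pattern most like that of Mtfp1 over the 12 libraries among 6307 tested genes with a mean of at least 5. Pearson's r of the log2 values was 0.92 for Atrx, 0.89 for Dpp8, a serine protease, 0.86 for Wdr26, a subunit of a ubiquitin ligase, 0.86 for Marcksl1, a protein of the membrane cytoskeleton, and 0.84 for Fam155a, a partner of the sodium leak channel NALCN. All 5 have lower means in cKO than in control of both sexes, and the libraries share their group, depth and background. Mtfp1 was chosen for its lower level in these same cKO libraries. The ranking therefore favours genes lower in cKO and tests no link with Mtfp1. Within groups, after subtracting each group's mean, r with Mtfp1 was -0.03 for Atrx, 0.20 for Dpp8, -0.43 for Wdr26, -0.14 for Marcksl1 and 0.07 for Fam155a. Among the machinery r was 0.19 for Mfn2, 0.08 for Mfn1, -0.04 for Fis1, -0.22 for Opa1 and -0.45 for Dnm1l, and within groups it was -0.83 for Mfn2, -0.22 for Mfn1, 0.12 for Fis1, -0.59 for Opa1 and -0.07 for Dnm1l.

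**Figure D4:**
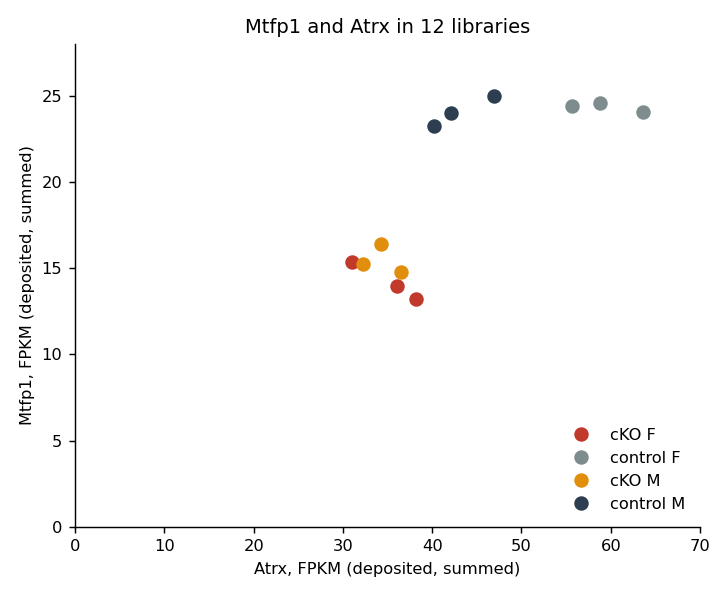
Deposited FPKM of Mtfp1 against that of Atrx, 1 point per library, coloured by group. The cKO points of both sexes gather at 31.0 to 38.2 FPKM of Atrx and 13.2 to 16.4 FPKM of Mtfp1, while control males (40.2 to 46.9 FPKM of Atrx) and control females (55.6 to 63.6) differ in Atrx at a like level of Mtfp1.

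Atrx and Mtfp1 differed in how they compared between control males and control females. Control males had 40.2 to 46.9 FPKM of Atrx, all below the 55.6 to 63.6 FPKM of control females. For Mtfp1 the control groups overlapped, at 23.2 to 25.0 FPKM in control males and 24.0 to 24.6 FPKM in control females.

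Genes next to Mtfp1 on chromosome 11 did not pass the test in either sex, apart from calls in females under 2 alternatives. Within 50 kb, 5 annotated genes had a mean of at least 1 FPKM. The nearest, Sec14l2, which encodes a lipid-binding protein, lies 1594 bases before the start of Mtfp1 on the same strand. It had 10.8, 7.85 and 9.33 FPKM in cKO females, against 11.8, 12.9 and 11.2 FPKM in control females, without overlap. The male libraries had 10.4, 9.97 and 9.44 FPKM in cKO, against 10.8, 9.41 and 11.1 FPKM in control, with overlap. Its log2 change was -0.56 in females (limma adjusted p = 0.127) and -0.10 in males (adjusted p = 1), and -0.08 in females without cKO females 2 and 3.

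Rnf215, a RING finger gene, had a log2 change of -0.37 in females (adjusted p = 0.267) and 0.14 in males (adjusted p = 1). For Ccdc157 the log2 change was -1.35 in females (adjusted p = 0.114) and -0.12 in males (adjusted p = 1), while its deposited means were 2.93 FPKM in cKO females and 2.69 FPKM in control females, the other way round. Mir3060, a microRNA gene, did not pass in either sex (adjusted p = 0.664 in females and 1 in males). Sec14l3, at a mean of 1.34 FPKM, was below the filter on processed values. Without cKO female 1, Sec14l2 (-0.81), Rnf215 (-0.60) and Ccdc157 (-1.99) passed in females, beside 5768 genes in all. With library weights Sec14l2 (-0.65, adjusted p = 0.0285) and Ccdc157 (-1.78, adjusted p = 0.0136) passed, beside 3507 genes.

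The wider mitochondrial programme held no call in cKO against control. In 8 lists of 99 genes, 92 were tested, and 0 passed by limma in females, in males or in the mean of both sexes; 17, 4 and 11 had an unadjusted p under 0.05, beside 29.4%, 2.33% and 20.4% of all genes. The median log2 change over the 92 was -0.01 in females and -0.01 in males, beside 0.02 and 0.03 over all genes. With library weights 9 of the 92 passed in females, beside 3507 genes in all, and without cKO female 1 the count was 24, beside 5768.

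Of 14 other fission and fusion factors tested, 6 had positive and 8 negative estimates in either sex, with medians of -0.06 in females and -0.04 in males. Gdap1, an outer membrane protein that promotes fission, had log2 changes of 0.29 in females (limma adjusted p = 0.114) and 0.18 in males (adjusted p = 1) that did not pass. Its processed values were higher in all cKO than in all control libraries of both sexes. How many of all genes separate in this way was not counted. Miga1, which promotes fusion, had -0.10 and -0.22, and Dnm2, a dynamin of the plasma membrane and endosomes, had -0.25 and -0.09 in females and males. Among 9 inner membrane proteases and prohibitins, Oma1, the stress protease that cuts OPA1, had log2 changes of 0.41 in females (adjusted p = 0.114) and 0.12 in males. Parl, a rhomboid protease, had 0.27 and 0.09, and Afg3l2, a subunit of the m-AAA protease, had -0.86 and 0.02.

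The 11 genes of cristae junctions and the MICOS complex had a median of -0.31 in females, with 9 negative estimates. In males the median was 0.02, with 3 negative estimates. None passed by limma, and their smallest adjusted p in females was 0.120. Their summed processed level was 64.4 to 75.9 in cKO females against 76.7 to 83.6 in control females, without overlap. In males the sums overlapped, at 91.1 to 94.6 in cKO against 91.1 to 97.0 in control. These sums were not tested. Apool had log2 changes of 0.71 in females and 0.12 in males, Immt, which encodes the MICOS core protein mitofilin, had -0.05 and -0.39, and Apoo had -0.07 and -0.23. For the 10 genes of mitochondrial transport the medians were -0.10 in females and -0.04 in males. Trak1, an adaptor that links mitochondria to kinesin, had -0.45 and -0.21, Snph, which anchors mitochondria in axons, had -0.16 and -0.14, and Trak2 had 0.16 and 0.03. In none of these lists did a gene pass.

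Of 10 mitophagy genes tested, the medians were 0.04 in females and 0.00 in males. Tbk1, a kinase of autophagy receptors, had log2 changes of 0.21 in females and 0.24 in males, Ulk1, the kinase that starts autophagy, had -1.33 and -0.16 (deposited means of 7.36 FPKM in cKO females and 5.92 FPKM in control females, the other way round), and Optn, a receptor for damaged mitochondria, had 0.30 and 0.07. For 10 biogenesis genes the medians were 0.02 in females and males. The summed processed level of the biogenesis list was 44.1 to 51.1 in cKO females against 40.7 to 43.9 in control females, without overlap. In males the sums overlapped, at 43.7 to 45.8 in cKO against 43.6 to 46.2 in control. These sums were not tested. Tfb2m, a transcription factor of the mitochondrial genome, had 0.58 and -0.03, the coactivator Ppargc1a had -0.11 and -0.26, and the transcription factor Nrf1 had 0.81 and 0.03. Nrf1 averaged 15.6 FPKM in cKO females and 5.97 FPKM in control females (limma adjusted p = 0.114), and 5.74 FPKM in cKO males and 5.47 FPKM in control males. These are deposited means, without background subtraction. The deposited sum of the biogenesis list was 82.0, 104 and 113 FPKM in cKO females 1 to 3, against 74.5 to 82.9 FPKM in control females. The part of the high background of cKO females 2 and 3 in this was not tested.

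Genes that stand for the amount of mitochondria had medians near 0, at -0.03 in females and 0.03 in males over 15 genes. Tomm20, an import receptor, had log2 changes of -0.23 in females and -0.09 in males, the channel gene Vdac3 had 0.15 and 0.09, and Timm23, a subunit of the inner membrane import channel, had -0.44 and -0.71. Over the 13 protein genes of the mitochondrial genome the median was 0.12 in females, with 10 positive estimates, and -0.68 in males, with 13 of 13 negative; none passed in either sex. These 13 genes are cut from shared transcripts and are not independent. Their summed processed level was 29496 to 58810 in cKO females against 26232 to 45969 in control females, and 24468 to 34289 in cKO males against 29800 to 61835 in control males, with overlap in both. Of them, mt-Co3 had log2 changes of -0.13 in females and -0.26 in males, mt-Nd1 had 0.12 and -0.68, and mt-Nd6 had -0.08 and -0.86.

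**Figure D5:**
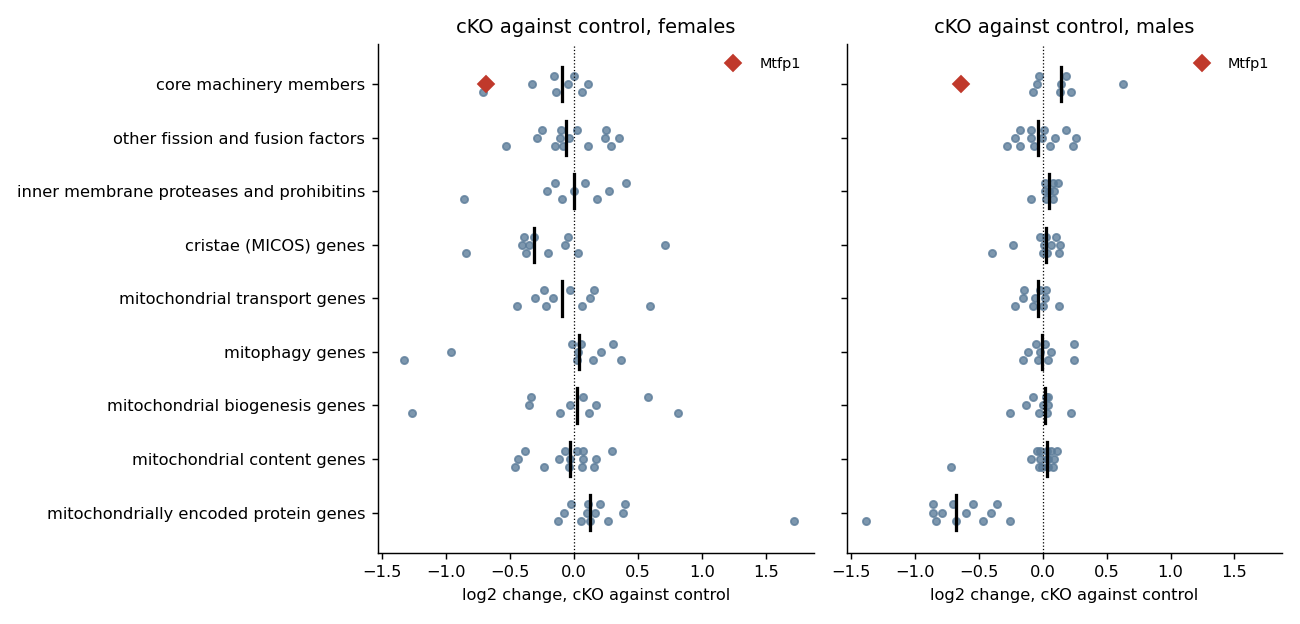
Log2 change of processed values in cKO against control, in females (left) and males (right), for each tested gene of the machinery and of 8 mitochondrial lists; black lines are medians, and the diamond is Mtfp1, left out of the median of its row. Mtfp1 stands at -0.69 and -0.64. In females the cristae genes have a median of -0.31. The mitochondrially encoded genes have a median of 0.12 in females and -0.68 in males. All other medians of the mitochondrial lists lie from -0.10 to 0.05. Single list genes reach -1.33 in females and -1.38 in males.

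Between control males and control females, 11 of the 92 genes of these lists passed, 9 higher and 2 lower in control males. That is 12.0%, beside 11.7% of all genes tested.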

How the data were processed

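Hippocampal total RNA of 12 libraries was measured by RNA-seq after ribosomal RNA reduction with ScriptSeq Complete Gold, per the labels' protocols. HISAT2 2.0.4, StringTie and GRCm38.p6 are named in the submitters' processing notes. The authors deposited, for each library, the FPKM and the coverage signal (mean reads per base) of 137862 transcripts in 54532 genes.

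From these, bases per gene (coverage times length) were divided by union exon length on the FPKM scale. The median of 1459 receptor genes was subtracted, values below 0 were set to 0, and libraries were scaled by the median of ratios over coding genes averaging 5 or more. The filter kept 15087 genes that averaged 1 or more and reached 1 in 3 libraries. Log2(value + 0.5) was fitted with limma 3.58.1 (R 4.3.3, trend and robust, 4 group means, two-sided, Benjamini-Hochberg, threshold 0.05). Deposited transcript FPKM was scaled by the same factors, without subtraction of background, and kept at 0.5 or more in 3 libraries (79484). Python 3.11.15 with pandas 2.3.3 and numpy 2.4.6 prepared the tables. The fit was also run on simulated data that followed the background model of the processing. That run does not show how the fit behaves on these libraries.

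Depth was 1.16 to 8.64 Gb of mapped sequence, and precision is given by the spread of 3 libraries. Where groups are said not to overlap, the share of all genes that separate likewise was not counted. Alternatives changed the subtraction, scaling, filter, pseudocount, weights, a block on replicate numbers and the libraries included. The 9 genes and the lists were chosen with earlier results of these data known. Named were the 9 genes, their transcripts holding at least 10%, up to 3 genes per list of smallest p in the mean of both sexes, genes within 50 kb of Mtfp1 with a mean of at least 1, and the 5 of highest r with Mtfp1.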

Additional observations from a re-analysis of the deposited data

How the results depend on the processing

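Mtfp1 was lower in cKO under each of 25 alternatives, at a log2 change of -1.46 to -0.66 in females and -0.87 to -0.62 in males; the extremes came with summed FPKM scaled over all genes (-1.46 in females, -0.87 in males), and in females it was -1.17 without scaling and -0.81 with quantile normalization. The median of all genes in females moved to -0.59, -0.46 and -0.12 under these, and Mtfp1 minus that median was -0.86, -0.71 and -0.69. No alternative gave a call to the 8 other genes in cKO against control. The cause of the following changes was not tested.

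Genes called in females (11) were 2 without subtraction, 0 with summed transcript FPKM, 0 scaled over all genes, 4 without scaling, 30 without a filter, 7 at a mean of at least 5 and 3507 with library weights. In males (1) they were 3 without subtraction, 2 with 0.5 of it, 2 at a mean of at least 5, 16 with weights, and 0 with summed FPKM, all-gene scaling, no scaling or quantile normalization. In the mean (5) they were 8 without subtraction, 8 with 0.5 of it, 1 with summed FPKM, 0 with all-gene scaling, 0 without scaling, 3459 with weights and 10 without cKO females 2 and 3. In the difference (0) weights gave 1732. For control males against control females (1765) they were 984 with summed FPKM, 106 with all-gene scaling, 15 without scaling, 719 without a filter, 5040 with weights and 3344 without cKO females 2 and 3.

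Of the 9 genes, calls in that comparison (2) were 1 with summed FPKM, 0 with all-gene scaling, 0 without scaling and 1 without a filter. Mfn2 was -0.35, 0.20, -0.40 and -0.38 there and reversed to 0.20 with all-gene scaling; Fis1 was 1.12 with all-gene scaling and 0.51 without scaling. Of the list genes, calls between control sexes (11) were 6 with summed FPKM, 0 with all-gene scaling, 0 without scaling, 6 with quantile normalization, 3 without a filter and 26 with weights; in cKO females and the mean weights gave 9 and 9. Transcripts called in males (8) were 4 at 1 FPKM or more.

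Without 1 library at a time, genes called ran from 1 to 5768 in females, 1 to 2 in males, 3 to 4430 in the mean, 0 to 2907 in the difference and 532 to 2777 between control sexes. Members called between control sexes ran from 1 to 2. List genes ran from 0 to 24 in females, 0 to 12 in the mean and 2 to 12 between control sexes. Transcripts ran from 20 to 49915 in females, 4 to 14 in males and 11 to 45277 in the mean, and those of the 8 genes from 0 to 15 and 0 to 12 in females and the mean.

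Same-numbered cKO and control libraries deviated together (correlation over 0.1) in 3 of 6 pairs. The design text counts pairs of mice but does not tie them to these numbers, so the libraries were not treated as paired, and whether they are pairs is not known. With a replicate block, Atrx in females had an adjusted p of 0.127, genes called were 0 in females, 0 in males and 0 in the mean, transcripts called in females were 20406, and 4 transcripts of the 8 genes were among them. Depth and background limit cKO females most: Mief2 in cKO female 2 was left near 0 by the subtraction.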
